A study of Mus musculus with 12 samples.

Results

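The comparison described here is the interaction of the Myc transgene with loss of Max, which asks of each gene whether the transgene changed it by the same fold in cells that had Max and in cells that lacked it. Its members are all 12 of the 12 libraries, placed by their genotype labels in a design of 2 by 2: Max WT, Max KO, EuMyc Max WT and EuMyc Max KO, each with cells from 3 individual mice. The cells were B220+ splenocytes, and the mice were 4 to 5 weeks old. The B220 antigen, made from the CD45 gene, marks the B lineage from pro-B cells onward. EuMyc is a Myc transgene placed under the immunoglobulin heavy chain enhancer, so that MYC is overproduced in the B lineage. At the age sampled the EuMyc cells are described as premalignant by the study's title, which also calls the Max KO conditional, and the Cre driver is not given in the sources used here. Both transgene effects below are therefore within 1 Max genotype: EuMyc Max WT against Max WT is the effect with Max, and EuMyc Max KO against Max KO is the effect without Max. These 2 effects share no library. The interaction is the effect without Max minus the effect with Max, on a log2 scale.

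MYC is a basic helix-loop-helix leucine zipper protein that binds DNA as a dimer with MAX, mostly at E-box sequences of which CACGTG is the best known. Through MAX-dependent binding it raises genes for ribosome production, nucleotide and amino acid synthesis, mitochondria and cell cycle entry. MAX also pairs with the MXD proteins, MNT and MGA, which repress genes with the same E-boxes, so loss of Max removes repressors as well as the partner of MYC. In B cells, overproduced MYC is known to expand cycling precursors and to hold back maturation.

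Each library held 14973332 to 21671601 reads assigned to genes, and the EuMyc Max WT libraries were the deepest, at 20221681 or more. Levels are given as CPM, the counts scaled to the library size. Of 24421 genes in the tables, 12878 passed the filter on low counts and were tested. The 3 EuMyc Max KO libraries differed from each other in several gene groups. The 18 tested genes of an erythroid marker list summed to 1750 to 9387 CPM in them, against 919 to 1117 CPM in EuMyc Max WT, 194 to 521 CPM in Max WT and 284 to 637 CPM in Max KO. Car2, a carbonic anhydrase on that list, was at 1045, 700.5 and 190.4 CPM in EuMyc Max KO replicates 1, 2 and 3 and at 88.0, 63.4 and 86.0 CPM in EuMyc Max WT. Replicates 1 and 2 also had 27.9 and 27.0% of reads aligned to several places, against 20.3 to 23.4% in the other 10 libraries. The counts over all genes and those of many lists are given also with replicates 1 and 2 left out, where the remaining mouse is assumed to vary like the other groups. Counts of list members called without Max moved with single libraries, so their lowest and highest values with 1 library left out are given where they moved by over 1.5-fold. In bulk RNA, fewer cells of a type and less RNA per cell cannot be told apart.

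Promoters of 3 genes are shown first because they belong to MYC target genes whose response to the transgene was most clearly smaller without Max and because each holds the E-box CACGTG. They are the 3 genes of a list of 74 MYC targets with the smallest interaction p among those with that motif within 250 bases before to 50 bases after the start of a RefSeq transcript (GRCm38.p6). Windows on 1 chromosome were left out of this choice. Capitals mark CACGTG, which reads the same on both strands and was searched alone. Cdk4 encodes a kinase that drives G1, Ldha the enzyme that makes lactate from pyruvate, and Phb a scaffold protein of the mitochondrial inner membrane.
Cdk4, chr10:127063285-127063584, plus strand: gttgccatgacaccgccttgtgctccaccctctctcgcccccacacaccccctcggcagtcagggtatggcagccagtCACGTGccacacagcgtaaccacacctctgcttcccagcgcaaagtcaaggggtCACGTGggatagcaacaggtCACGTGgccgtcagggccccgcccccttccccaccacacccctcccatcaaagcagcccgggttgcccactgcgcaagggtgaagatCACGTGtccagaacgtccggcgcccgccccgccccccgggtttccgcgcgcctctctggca
Ldha, chr7:46845554-46845853, plus strand: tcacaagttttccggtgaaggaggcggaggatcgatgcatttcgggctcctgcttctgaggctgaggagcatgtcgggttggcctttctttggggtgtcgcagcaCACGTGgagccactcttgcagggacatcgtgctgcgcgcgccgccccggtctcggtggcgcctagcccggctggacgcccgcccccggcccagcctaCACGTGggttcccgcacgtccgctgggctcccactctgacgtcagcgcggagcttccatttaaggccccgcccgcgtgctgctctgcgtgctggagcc
Phb, chr11:95666707-95667006, plus strand: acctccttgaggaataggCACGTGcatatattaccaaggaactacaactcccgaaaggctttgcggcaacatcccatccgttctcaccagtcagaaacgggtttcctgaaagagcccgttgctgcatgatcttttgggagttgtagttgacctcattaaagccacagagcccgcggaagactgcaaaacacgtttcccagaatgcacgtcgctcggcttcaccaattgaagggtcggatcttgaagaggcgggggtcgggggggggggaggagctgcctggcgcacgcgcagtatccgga
The Cdk4 window held 4 copies, the Ldha window 2 and the Phb window 1, the last 232 bases before the start. Of all 32851 windows with a RefSeq start, 7.15% held the motif. At least 1 window with the motif was found for 11.8% of the 9855 tested genes that the table holds, for 16 of 64 MYC target genes (25%), for 22.7% of 75 ribosome biogenesis genes and for 7.14% of 42 genes of G2 and mitosis. Among genes raised by the transgene with Max and placed in the lost or reduced class given below, the share was 13.9% of 2700. Among those lowered, it was 10.9% of 2466. Among the genes whose effect was kept by the rule given below, it was 14.1% of 71 raised, and 16 of 80 lowered genes held it. These are matches of letters in 1 window per start and say nothing of binding.

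Myc and Max themselves were looked at first, as a check of the labels. Myc (chromosome 15, 61985391 to 61990374 of GRCm38) was at 115, 96.0 and 106 CPM in the Max WT libraries and 136, 124 and 119.8 CPM in Max KO. In EuMyc Max WT it was at 975, 1049 and 1007 CPM, and in EuMyc Max KO at 514, 565 and 487 CPM. All 6 transgenic libraries lay above all 6 others, and the EuMyc Max KO libraries lay below the EuMyc Max WT libraries without overlap. The transgene effect on Myc was 3.26 (log2, SE 0.080) with Max and 2.05 (SE 0.080) without, an interaction of -1.21 (SE 0.11, adjusted p = 2.33e-06). Transgene and endogenous Myc transcripts are counted together, and the part of this smaller rise of Myc in the transgene effects without Max that follow was not tested. Max (chromosome 12, 76937269 to 76962201) was at 139, 110.3 and 108 CPM in Max WT, 102, 102 and 99.8 CPM in Max KO, 126, 127 and 130.0 CPM in EuMyc Max WT and 108, 104 and 102 CPM in EuMyc Max KO. Both Max KO groups lay below both groups with Max, by a small margin. Reads from transcripts that lack a deleted exon still count for the gene, so the level of Max does not measure the deletion.

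Of 12 tested genes of the MYC and MAX network, with Myc and Max among them, 2 had an interaction above 0 and 3 one below 0, shares near the 27.8% and 27.9% of all tested genes. Mxd4, a MYC antagonist of quiescent cells, was at 84.6, 78.7 and 82.4 CPM in EuMyc Max WT and 46.2, 47.4 and 45.2 CPM in Max WT, and at 58.6, 62.8 and 58.6 CPM in EuMyc Max KO and 62.1, 53.1 and 57.1 CPM in Max KO. The transgene effect was 0.82 with Max and 0.06 without (interaction -0.76, SE 0.094, adjusted p = 2.29e-05), and the transgenic libraries without Max overlapped their controls. Mycl, a Myc paralogue, was at 0.532 to 0.627 CPM in EuMyc Max WT and at 3.64 to 14.1 CPM in the other 9 libraries, with an interaction of 2.68 (SE 0.52, adjusted p = 0.00063). Mnt and Mga, which encode MAX-bound repressors, had interactions of -0.11 (95% interval -0.38 to 0.16) and -0.04 (-0.38 to 0.30), and rose with Max loss in normal cells by 0.73 (adjusted p = 0.00036) and 0.80 (adjusted p = 0.000886).

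Across all tested genes the transgene changed much of the transcriptome when Max was present and little of it when Max was absent. With Max, 9225 genes (71.6%) changed, 4730 up (36.7%) and 4495 down (34.9%), at a Benjamini-Hochberg adjusted p under 0.05 in edgeR's quasi-likelihood test. Without Max, 1853 genes (14.4%) changed, 1378 up (10.7%) and 475 down (3.69%), a split that was 1215 up and 695 down with upper-quartile scaling. The interaction itself was called for 7175 genes (55.7%), with 3586 above 0 (27.8%) and 3589 below 0 (27.9%), and it exceeded 2-fold for 3043 of them (23.6%). Of the 9225 genes called with Max, 73.7% had a called interaction in the direction against their transgene effect. A further 24.4% had neither a called interaction nor an effect shown to be kept, so for these genes the data do not settle the matter. A called interaction is a departure from additive log2 effects. On the CPM scale 7146 of the 7175 had the same direction and 29 the opposite one.

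Most of the called interactions were in genes whose transgene effect was called with Max only, a class named lost here. A missed threshold without Max does not show that no effect was left. In 5806 genes (80.9% of the 7175 and 45.1% of all tested) the transgene effect was called with Max only, and the median size of that effect was 0.87 with Max and 0.13 without. Another 917 genes (12.8%, or 7.12% of all tested) were called with and without Max in the same direction but with a smaller effect without. The remainder were 75 genes with opposite effects, 182 called without Max only, 19 with a larger effect without Max and 176 called in neither transgene comparison. Over all genes called with Max, the median share of the log2 effect that remained without it was 15.4% for the 4730 raised and 15.2% for the 4495 lowered. Of the 1868 genes raised over 2-fold with Max, 811 (43.4%) were also raised without Max and the median share was 24.7% (quartiles 11.6 and 50.6%). Of the 2114 genes lowered over 2-fold with Max, 215 (10.2%) were also lowered without it and the median share was 9.95%. These shares tend to be too small, because the genes were chosen by their effect with Max, and by how much was not measured. When EuMyc Max KO replicates 1 and 2 were left out, 569 genes were called without Max (518 up and 51 down), and 6345 interactions were called. The count without Max also moved when single libraries were left out, to 1071 without Max KO replicate 1, 1078 without Max KO replicate 3, and 1070, 1057 and 2846 without EuMyc Max KO replicates 1, 2 and 3.

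**Figure D1:**
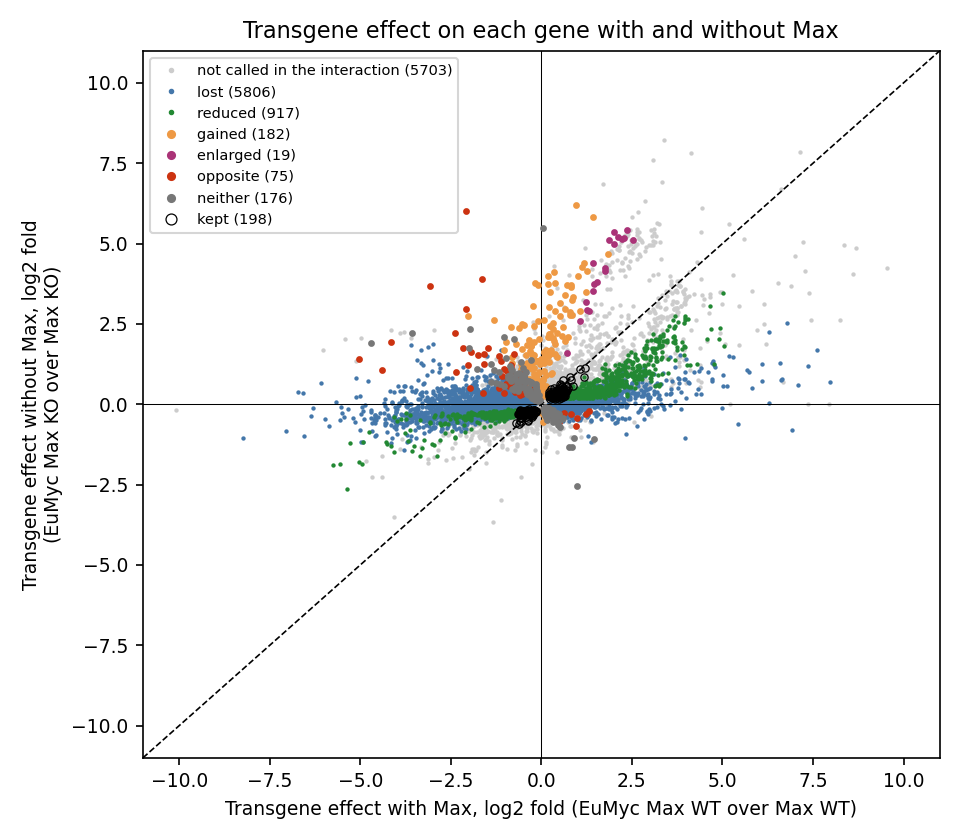
Each point is 1 of the 12878 tested genes, with the transgene effect with Max on the horizontal axis and without Max on the vertical axis, both as log2 fold, coloured by the class of its interaction. The 5806 lost effects form a flat band at a vertical value near 0, the 917 reduced effects lie below the dashed line of equal effects when raised and above it when lowered, and the 198 kept effects (open circles) lie near that line, most of them close to the origin.

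The established target genes of MYC lost most of their response. Of the 74 listed MYC targets 71 rose with the transgene when Max was present, with a median effect of 1.51. An interaction below 0 was called for 65 of the 74, for 27.9% of all tested genes and for 73.7% of all genes raised with Max. Without Max 43 of the 74 rose, against 10.7% of all tested genes, and the median effect was 0.289. For 38 of them the rise was called smaller than with Max. With EuMyc Max KO replicates 1 and 2 left out, 25 rose without Max, at a median effect of 0.296, and 69 had an interaction below 0. Cdk4, whose promoter is shown above, was at 116, 110.1 and 115 CPM in Max WT, 382, 438 and 412 CPM in EuMyc Max WT, 91.6, 97.3 and 91.8 CPM in Max KO and 125, 121 and 119 CPM in EuMyc Max KO. The EuMyc Max KO libraries lay above their own controls and close to normal cells with Max. Its effect was 1.85 with Max and 0.38 without (interaction -1.47, SE 0.081, adjusted p = 7.05e-08). For Ldha the 4 groups stood at 266, 217 and 238 CPM in Max WT, 912, 1034 and 975 CPM in EuMyc Max WT, 250.3, 257 and 254 CPM in Max KO and 319, 295 and 309 CPM in EuMyc Max KO, an effect of 2.02 against 0.28 (interaction -1.74, SE 0.11, adjusted p = 1.3e-07). EuMyc Max KO lay above its control without overlap, and EuMyc Max WT stood far above all other libraries. Phb rose from 83.8, 73.8 and 80.1 CPM to 195, 209 and 209 CPM with Max, and without Max was at 70.5, 70.6 and 68.0 CPM in normal and 79.1, 77.9 and 75.1 CPM in EuMyc cells, a difference of 0.15 that missed the threshold (adjusted p = 0.0965). Its interaction was -1.21 (SE 0.080, adjusted p = 1.93e-07).

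A few listed MYC targets did not follow this pattern. Tfrc, the transferrin receptor, Slc7a5, an amino acid transporter, and Odc1, the rate-limiting enzyme of polyamine synthesis, had interactions that missed the threshold: 0.08 (95% interval -0.86 to 1.02), -0.24 (-0.84 to 0.36) and -0.42 (-0.87 to 0.03). In EuMyc Max KO replicates 1, 2 and 3, Tfrc was at 543, 413 and 195 CPM, Slc7a5 at 129, 102 and 67.2 CPM and Odc1 at 504, 404 and 299.6 CPM. In all 3, replicate 1 was the highest and replicate 3 the lowest, the order of the erythroid markers, and Tfrc is itself on the erythroid list; the part of those cells in the result was not tested. Slc3a2, the partner chain of Slc7a5, rose without Max only, from 114, 124 and 105 CPM to 210.0, 165 and 139.5 CPM (effect 0.59, interaction 0.64, adjusted p = 0.00653). Its EuMyc Max KO replicates stood in that same order, and the part of erythroid cells in its rise was not tested either. Ccnd2, a D-type cyclin, was at 116, 106 and 109 CPM in Max WT, 55.3, 42.6 and 61.3 CPM in EuMyc Max WT, 219, 192 and 191 CPM in Max KO and 219.8, 216 and 216 CPM in EuMyc Max KO. It was lowered by the transgene with Max (-1.06) and not detectably changed by it without (0.11, 95% interval -0.11 to 0.34).

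**Figure D2:**
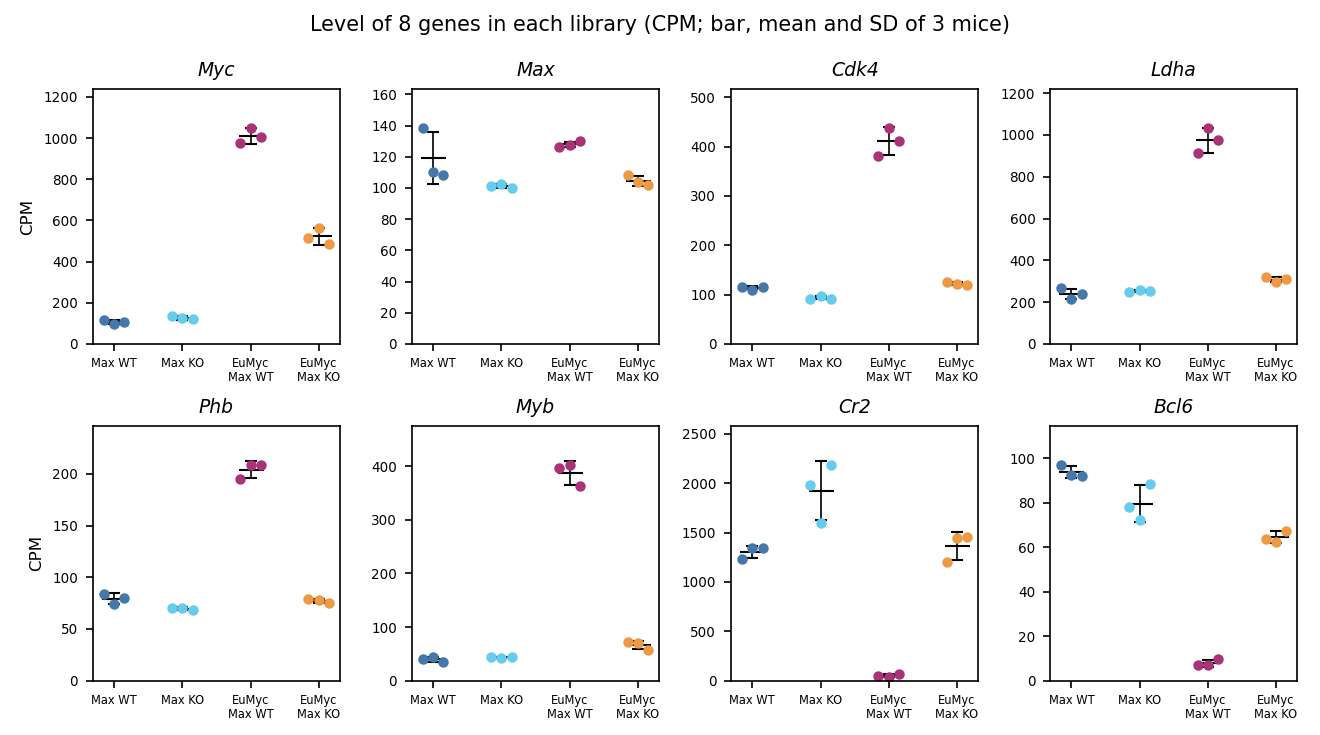
Each panel gives the level of 1 gene in CPM in every library (points) with the mean and SD of the 3 mice of a group (bars), on axes that start at 0. Cdk4, Ldha, Phb and Myb are highest in EuMyc Max WT, Cr2 and Bcl6 are far lower there than in the other groups, and Myc is raised in both transgenic groups but less in EuMyc Max KO.

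Genes for the making of ribosomes rose with the transgene where Max was present and hardly moved where it was absent. Among 88 ribosome biogenesis genes, which build rRNA and assemble subunits in the nucleolus, 87 rose with Max (median 0.837) and 87 had an interaction below 0. Without Max 9 of them rose (2 without Max KO replicate 2, 11 without Max WT replicate 1), near the 10.7% of all tested genes. The median effect was 0.0303. For 87 of the 88 the 95% interval of the effect without Max lay within 1.5-fold of no change, as it did for 7948 of all 12878 tested genes. That bound was applied to single effects after the data had been seen. The median effect without Max fell to -0.00739 with upper-quartile scaling, and 82 interactions were below 0 without EuMyc Max KO replicates 1 and 2. Fbl, the rRNA methyltransferase fibrillarin, was at 134, 115 and 122 CPM in Max WT, 344, 376 and 338 CPM in EuMyc Max WT, 123, 117 and 115 CPM in Max KO and 134, 131 and 132 CPM in EuMyc Max KO. The EuMyc Max WT libraries stood alone, and the effect was 1.51 with Max and 0.16 without (interaction -1.35, SE 0.090, adjusted p = 2.08e-07). Nhp2, a protein of the small nucleolar particles that guide pseudouridylation, gave 1.86 and 0.23 (interaction -1.63, adjusted p = 2.83e-07).

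Cytosolic ribosomal protein genes, the products that those factors assemble, showed a smaller median effect with Max, of which a median of 37.4% remained without, against 3.51% for ribosome biogenesis. These shares were measured from Max KO levels. Max loss in normal cells lowered 58 of the 79 ribosomal protein genes and raised 0 (median -0.349). Of the 88 ribosome biogenesis genes it lowered 20 and raised 9 (median -0.107). Of 79, 68 rose with Max (median 0.487), 15 rose without (median 0.194; 2 rose without Max KO replicate 1, 21 without Max WT replicate 2 and 32 with DESeq2), 40 had an interaction below 0 and 5 met the rule for kept effects given below. The count of interactions below 0 depended on scaling, at 22 with upper-quartile factors and 26 with library totals, and was 12 without EuMyc Max KO replicates 1 and 2. Rpl28, a protein of the large subunit, was at 656, 539 and 590.3 CPM in Max WT, 1193, 1235 and 1346 CPM in EuMyc Max WT, 423, 457 and 431 CPM in Max KO and 499, 532 and 593 CPM in EuMyc Max KO. The EuMyc Max KO libraries lay above all Max KO libraries and below or among those of Max WT, with effects of 1.08 and 0.31 (interaction -0.77, SE 0.12, adjusted p = 0.000158). Ribosomal protein genes have many processed copies in the genome, so counts of single members are uncertain. Translation factors and tRNA synthetases sat between these groups, with 49 of 50 up with Max, 18 up without and 44 interactions below 0. The 18 became 9 without Max KO replicate 3 and 3 without EuMyc Max KO replicates 1 and 2, where the median effect without Max was 0.195 against 0.161 with all libraries.

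Mitochondrial, proteasome, chaperonin and nucleotide genes rose with the transgene where Max was present, and nearly all of them had an interaction below 0. All 67 oxidative phosphorylation genes rose with Max (median 0.946), 32 rose without (median 0.221) and 65 had an interaction below 0. Of 75 genes of the mitochondrial ribosome and protein import, 73 had an interaction below 0, and of 41 proteasome and chaperonin genes, 40. Rises without Max were called for 12 of the 75 and 16 of the 41. With EuMyc Max KO replicates 1 and 2 left out, rises without Max were called for 3 of 67, 2 of 75 and 1 of 41, and 63, 69 and 40 interactions were below 0. The median effects without Max were then 0.19, 0.163 and 0.199, against 0.221, 0.14 and 0.204 with all libraries. Leaving out Max KO replicate 1 alone gave 10, 4 and 7 rises. Cycs, which encodes cytochrome c, was at 57.5, 52.2 and 51.6 CPM in Max WT, 169, 170.1 and 168 CPM in EuMyc Max WT, 42.0, 45.1 and 43.8 CPM in Max KO and 58.3, 59.2 and 64.1 CPM in EuMyc Max KO. Each transgenic group lay above its control, the one with Max by 1.65 and the one without by 0.47 (interaction -1.18, SE 0.085, adjusted p = 3.6e-07). Nucleotide synthesis had 34 of 35 genes up with Max (median 1.44), 14 up without (median 0.199; 9 up without EuMyc Max KO replicates 1 and 2) and 32 interactions below 0, among them Ctps, the CTP synthase, at 2.0 with Max and 0.31 without (interaction -1.69, adjusted p = 1.26e-07).

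Enzymes of serine, one-carbon and lipid metabolism included members with strong dependence on Max. Gpam, the mitochondrial enzyme that starts glycerolipid synthesis, had the smallest interaction p of all tested genes. It was at 25.5, 25.6 and 27.4 CPM in Max WT, 29.3, 27.3 and 29.4 CPM in Max KO, 202, 209 and 199 CPM in EuMyc Max WT and 33.3, 31.7 and 32.4 CPM in EuMyc Max KO. With Max the effect was 2.96 (SE 0.056), without Max 0.18 (SE 0.057, adjusted p = 0.0538), and the interaction was -2.78 (adjusted p = 9.34e-10). Phgdh, the first enzyme of serine synthesis, stood at 72.8, 71.0 and 74.6 CPM in Max WT, 51.2, 51.3 and 51.4 CPM in Max KO, 315, 343 and 333 CPM in EuMyc Max WT and 81.4, 80.7 and 83.9 CPM in EuMyc Max KO, with no overlap between any 2 of the 4 groups. Its transgene effect was 2.18 with Max and 0.68 without (adjusted p = 3.58e-05), and the interaction was -1.50 (SE 0.069, adjusted p = 3.81e-08). Shmt1, the cytosolic serine hydroxymethyltransferase, combined an interaction of -3.02 (SE 0.17, adjusted p = 8.85e-08) with a rise on Max loss in normal cells, from 18.5, 13.5 and 15.9 CPM to 32.2, 29.3 and 33.2 CPM, and stood at 33.3, 40.8 and 35.5 CPM in EuMyc Max KO against 137, 171 and 140.2 CPM in EuMyc Max WT. Of 23 serine and one-carbon genes, 17 had an interaction below 0 and 1 above 0.

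Among 32 genes of cholesterol and fatty acid synthesis 8 had an interaction below 0 and 2 above 0, where 27.9% and 27.8% of all tested genes did, so the share below 0 was near that of all genes. Fasn, the fatty acid synthase, rose by 1.23 with Max and stood at -0.01 without, with 95% limits of -0.14 and 0.11 (interaction -1.24, adjusted p = 1.89e-07). Scd1, the stearoyl-CoA desaturase, went the other way, at 891, 959.8 and 990.2 CPM in Max WT, 229, 196 and 247 CPM in EuMyc Max WT, 842, 818 and 926 CPM in Max KO and 729, 781 and 983 CPM in EuMyc Max KO (interaction 2.03, SE 0.16, adjusted p = 6.16e-07). The fall was in EuMyc Max WT alone. Of 25 glycolysis genes, 13 had an interaction below 0 and 7 above 0. Of 13 polyamine genes, 5 were below and 2 above, with Srm, the spermidine synthase, at 2.07 with Max and 0.55 without (interaction -1.52, adjusted p = 2.29e-07).

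Cell cycle genes rose with the transgene in both Max genotypes, less so in the absence of Max. All 55 genes of S phase and DNA replication rose with Max (median 2.36), and 48 rose without it (median 0.936), with 48 interactions below 0. All 52 genes of G2 and mitosis rose with Max (median 3.42) and all 52 rose without (median 2.63), with 23 interactions below 0. The median share of the log2 effect that remained was 41.8% for S phase and 72.3% for G2 and mitosis, against 15.3% over all genes called with Max. The effects without Max, and so these shares, were measured from Max KO levels. Max loss in normal cells lowered 23 of the 52 genes of G2 and mitosis and raised 0 (median -0.917). Of the 55 S phase genes it lowered 20 and raised 1 (median -0.392). Over all 12878 tested genes it lowered 997 and raised 936. The shares also moved with the EuMyc Max KO libraries. The median level of the G2 and mitosis list over Max WT, in log2(CPM + 1), was 1.93, 1.43 and 0.646 in EuMyc Max KO replicates 1, 2 and 3, and the S phase list stood at 0.806, 0.575 and 0.233. The erythroid list had the same order, at 5.23, 4.59 and 3.00. The MYC target list ran in the reverse order over a narrower range, at 0.0618, 0.0842 and 0.0948. So did the ribosome biogenesis list, at -0.12, -0.0345 and -0.0203. Without replicates 1 and 2, all 52 mitotic genes had an interaction below 0 (median -1.63), 49 still rose without Max (median 1.75), 54 S phase genes had an interaction below 0 and 37 still rose (median 0.66). The part of erythroid cells in the rises without Max was not tested.

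**Figure D3:**
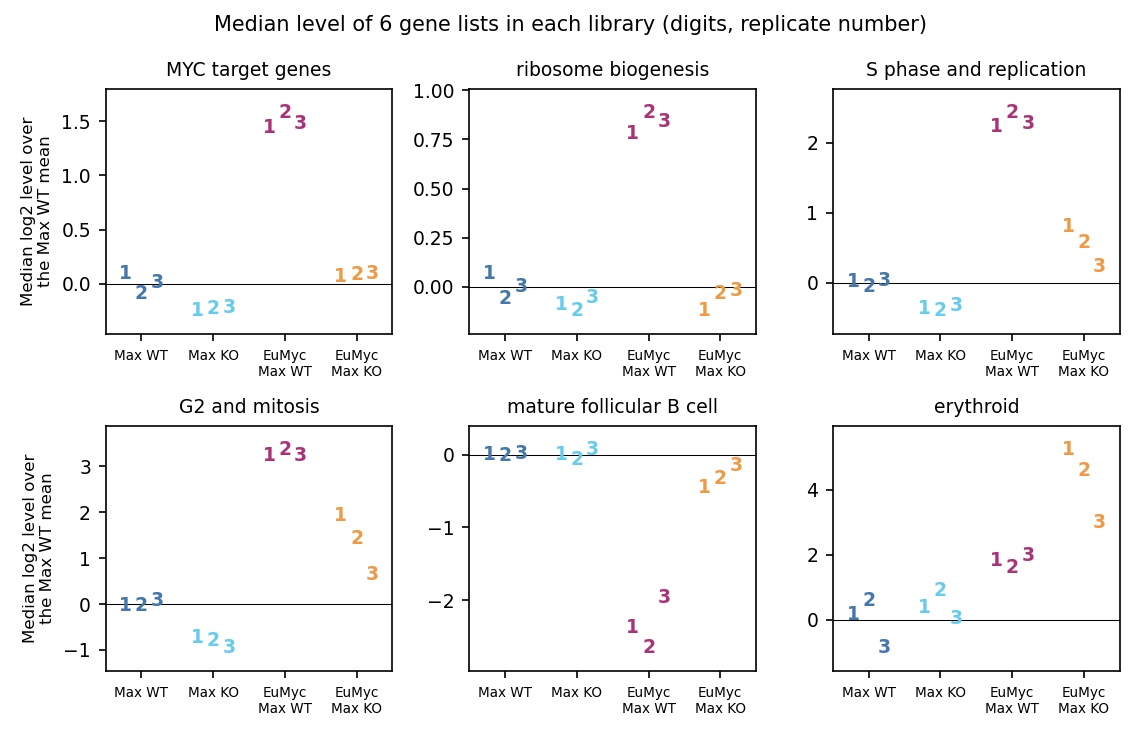
Each panel gives, for every library, the median over the genes of 1 list of log2(CPM + 1) minus the Max WT mean, with the replicate number as the symbol. In EuMyc Max KO the 3 libraries nearly coincide for MYC targets and ribosome biogenesis, whereas for S phase, G2 and mitosis and erythroid genes replicate 1 is the highest and replicate 3 the lowest.

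Single members of these lists differed in how much of the rise was left. Pole, the leading-strand polymerase subunit, was at 26.3, 30.6 and 31.3 CPM in Max WT, 170.2, 183 and 173 CPM in EuMyc Max WT, 36.5, 32.5 and 31.2 CPM in Max KO and 52.4, 50.6 and 40.8 CPM in EuMyc Max KO. Each transgenic group lay above its control, by 2.58 with Max and 0.52 without (interaction -2.06, SE 0.14, adjusted p = 2.49e-07). Bub3, a spindle checkpoint protein, gave 1.40 and 0.25 (interaction -1.15, adjusted p = 1.51e-06), and Mad2l1, of the same checkpoint, 2.12 and 0.82 (interaction -1.31, adjusted p = 2.79e-05). Mki67, the proliferation marker Ki-67, was at 129.7, 178 and 171 CPM in Max WT, 73.6, 76.6 and 51.5 CPM in Max KO, 1880.2, 2079 and 1728 CPM in EuMyc Max WT and 1402, 1079 and 414 CPM in EuMyc Max KO. All EuMyc Max KO libraries exceeded all Max KO and all Max WT libraries, and replicate 3 was the lowest. Its effects were 3.57 and 3.84, and the interaction was 0.27 with a 95% interval of -0.90 to 1.45, too wide to place the effect without Max above or below the one with Max. Rrm2, the ribonucleotide reductase subunit of S phase, had an interaction of -0.02 with an interval of -1.13 to 1.10. In normal cells the effects of Max loss on these genes were -1.25 and -1.26, short of the threshold (adjusted p = 0.055 and 0.0533). Other members of the S phase and the G2 and mitosis lists were called lower on Max loss, as given above.

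Genes of early B cell development rose with the transgene where Max was present, and fewer of them did so without it. Of 22 genes of the pro-B and pre-B stages, 18 rose with Max (median 2.44), 8 rose without (median 0.439, and 4 rose without Max KO replicate 1), 11 had an interaction below 0 and 2 above 0. Over all tested genes 10.7% rose without Max, 27.9% had an interaction below 0 and 27.8% above 0. Without EuMyc Max KO replicates 1 and 2, 3 rose without Max and 16 had an interaction below 0. Myb, a transcription factor of precursor cells, was at 40.2, 44.0 and 35.5 CPM in Max WT, 397, 403 and 362 CPM in EuMyc Max WT, 43.4, 41.9 and 44.3 CPM in Max KO and 71.8, 70.5 and 57.1 CPM in EuMyc Max KO. The EuMyc Max KO libraries lay above both normal groups but far under EuMyc Max WT (effects 3.28 and 0.62, interaction -2.65, SE 0.13, adjusted p = 4.02e-08). Akap12, a scaffold of protein kinase A, was at 747, 811 and 734 CPM in EuMyc Max WT and between 60.3 and 91.3 CPM in the 9 other libraries (interaction -3.10, SE 0.15, adjusted p = 4.94e-08). Enpep, the BP-1 antigen of pre-B cells, had one of the lowest called interactions, at 1.09, 1.48 and 0.477 CPM in Max WT, 113, 60.9 and 67.8 CPM in EuMyc Max WT, 4.91, 1.79 and 4.46 CPM in Max KO and 4.00, 3.45 and 4.11 CPM in EuMyc Max KO (interaction -6.26, SE 0.63, adjusted p = 1.29e-05). Smarca4, the ATPase of the SWI/SNF remodelling complex, rose by 2.23 with Max, and its effect without was 0.19 (adjusted p = 0.122). Rag1, of the recombinase that joins receptor gene segments, was at 16.1, 11.9 and 2.29 CPM in EuMyc Max KO replicates 1, 2 and 3, and at 355, 288 and 368 CPM in EuMyc Max WT. Its interaction of -3.19 missed the threshold (adjusted p = 0.0918), with an interval of -6.09 to -0.29.

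Genes of mature B cells were lowered by the transgene with Max and changed much less without it. All 23 follicular B cell genes fell with Max (median -2.32), and 22 had an interaction above 0, against 27.8% of all tested genes. Among all genes lowered with Max that share was 73.7%, and among those lowered over 2-fold it was 87.9%. The count that fell without Max was 4 (median -0.28), and 13 without EuMyc Max WT replicate 3. In edgeR it was 0 without Max KO replicate 3, EuMyc Max KO replicate 1 or EuMyc Max KO replicate 2, where 7, 4 and 6 fell at an unadjusted p under 0.05, and DESeq2 on all libraries called 6. All 11 MHC class II genes fell with Max (median -2.13) and all 11 had an interaction above 0. Without Max 4 of them fell (median -0.386), a count that was 1 without Max KO replicate 1 and 9 without EuMyc Max KO replicate 3. Cr2, the complement receptor CD21, was at 1236, 1339 and 1342 CPM in Max WT, 48.6, 41.7 and 69.3 CPM in EuMyc Max WT, 1986, 1601 and 2188 CPM in Max KO and 1201, 1445 and 1454 CPM in EuMyc Max KO. EuMyc Max WT was far below every other library, and EuMyc Max KO overlapped Max WT but lay below Max KO (effects -4.62 and -0.49, the second with adjusted p = 0.0722; interaction 4.12, SE 0.24, adjusted p = 2.54e-07). Cd22, a lectin that restrains receptor signalling, gave -2.43 and -0.21 (interaction 2.22, adjusted p = 1.26e-07). H2-Eb1, a class II beta chain, fell in both settings, by 2.13 on the log2 scale with Max and by 0.39 without (adjusted p = 0.0308), with an interaction of 1.74 (adjusted p = 1.54e-06).

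Marginal zone, NF-kB and interferon genes showed the same order, and the BCL2 family was mixed. Of 21 marginal zone genes 17 had an interaction above 0, led in p by S1pr3, a sphingosine-1-phosphate receptor. It was at 100.2, 105 and 112 CPM in Max WT, 5.75, 4.73 and 5.54 CPM in EuMyc Max WT, 105, 78.6 and 85.9 CPM in Max KO and 85.7, 73.6 and 102 CPM in EuMyc Max KO (interaction 4.26, SE 0.19, adjusted p = 3.85e-08). EuMyc Max WT stood alone, and EuMyc Max KO overlapped both normal groups. Of 28 NF-kB target genes, 26 fell with Max (median -1.96), 5 fell without (1 without Max KO replicate 3, 7 without EuMyc Max KO replicate 3) and 25 had an interaction above 0. Traf1, an adaptor of TNF receptors, was at 31.5, 33.6 and 38.1 CPM in Max WT, 2.76, 2.45 and 2.56 CPM in EuMyc Max WT, 40.9, 44.0 and 41.7 CPM in Max KO and 35.6, 35.7 and 33.8 CPM in EuMyc Max KO. Both transgenic groups were lower than their controls, by very different amounts (-3.73 and -0.27, the second with adjusted p = 0.0416), and the interaction was 3.46 (SE 0.13, adjusted p = 7.7e-09). Bcl2, which blocks apoptosis, was at 150.1, 172 and 176 CPM in Max WT, 24.2, 24.7 and 26.5 CPM in EuMyc Max WT, 213, 205 and 238 CPM in Max KO and 169, 185 and 215 CPM in EuMyc Max KO (interaction 2.52, SE 0.13, adjusted p = 5.47e-08). EuMyc Max KO overlapped both normal groups. Of 16 tested BCL2 family genes, 7 had an interaction above 0 and 3 below 0, where 27.8% and 27.9% of all tested genes did. The near-identical Bcl2a1 copies have uncertain counts one by one. Of 33 interferon response genes 26 fell with Max (median -1.07), 1 fell without and 26 had an interaction above 0. Without EuMyc Max KO replicates 1 and 2, 26 NF-kB, 11 class II, 22 follicular and 21 interferon interactions were above 0. In that edgeR fit 0 NF-kB, 0 class II, 0 follicular and 0 B identity genes were called lower without Max, and 4, 1, 1 and 3 were lower at an unadjusted p under 0.05.

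B lineage identity genes had smaller median effects. Of 27, 21 fell with Max (median -0.733) and 5 fell without (median -0.205, with 1 lower without EuMyc Max KO replicate 1 or 2 and 11 without replicate 3). There were 15 interactions above 0 and 4 below. Over all tested genes 3.69% fell without Max, 27.8% had an interaction above 0 and 27.9% below. Ptprc, which encodes CD45 and its B220 form, was at 2074, 2079 and 2135 CPM in Max WT, 2156, 2046 and 2284 CPM in Max KO, 589, 517 and 636 CPM in EuMyc Max WT and 1618, 1722 and 1988 CPM in EuMyc Max KO. Pax5, the factor that commits cells to the B lineage, was present in every library at no less than 136 CPM. Tcf3, which encodes the E2A factors of B cell specification, rose with Max by 1.45 and stood at 0.02 (95% interval -0.13 to 0.17) without (interaction -1.42, adjusted p = 2.48e-07).

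Germinal centre genes included some whose transgene effect was opposite with and without Max. Of 21 such genes, 15 fell with Max (median -2.02) and 7 rose without (median 0.304), with 16 interactions above 0 and 2 below. Bcl6, the repressor that governs the germinal centre programme, followed the pattern of loss: 97.1, 92.7 and 92.1 CPM in Max WT, 6.96, 7.07 and 9.66 CPM in EuMyc Max WT, 78.0, 72.4 and 88.5 CPM in Max KO and 63.9, 62.5 and 67.4 CPM in EuMyc Max KO (interaction 3.27, SE 0.15, adjusted p = 3.81e-08). S1pr2, the receptor that confines germinal centre B cells, did not. It was at 13.0, 14.0 and 13.8 CPM in Max WT, 1.81, 1.79 and 1.49 CPM in Max KO, 2.85, 3.03 and 3.29 CPM in EuMyc Max WT and 6.49, 4.11 and 6.39 CPM in EuMyc Max KO. The transgene lowered it with Max (-2.15, adjusted p = 3.27e-07) and raised it without (1.74, adjusted p = 0.000431), an interaction of 3.89 (SE 0.27, adjusted p = 3.26e-07), while Max loss alone had lowered it (-3.00, adjusted p = 3.96e-06).

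Opposite transgene effects with and without Max were called for 75 genes (1.05% of the called interactions), 60 of them down with Max and up without. The spread in EuMyc Max KO was wide for some of the 60, such as Arrb1 at a mean of 291 CPM (SD 117), and narrow for others. The part of erythroid cells in these calls was not tested. Foxp4, a forkhead repressor, was at 84.6, 84.7 and 85.2 CPM in Max WT, 85.0, 83.3 and 85.2 CPM in Max KO, 199.5, 224 and 213 CPM in EuMyc Max WT and 72.2, 74.5 and 74.9 CPM in EuMyc Max KO. EuMyc Max KO was the lowest group and EuMyc Max WT the highest, without overlap (effects 1.32 and -0.19, the second with adjusted p = 0.0229; interaction -1.52, SE 0.071, adjusted p = 3.81e-08). Ell2, an elongation factor of plasma cells, was at 19.3, 14.0 and 20.8 CPM in EuMyc Max WT, 73.7, 71.5 and 71.7 CPM in EuMyc Max KO and 52.1 to 59.1 CPM in the 6 normal libraries (interaction 1.97, SE 0.16, adjusted p = 7.13e-07). Its effects were -1.62 with Max and 0.35 without, the second only just under the threshold (adjusted p = 0.0497). Jak2, a kinase of cytokine receptors, lay highest in EuMyc Max KO at 202, 199 and 228 CPM, lowest in EuMyc Max WT at no more than 69.8 CPM and between 142 and 161 CPM in the normal libraries (interaction 1.68, adjusted p = 6.39e-08).

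Of 24 p53 and ARF pathway genes, 14 rose and 6 fell with Max, 5 rose without, and 11 had an interaction below 0 and 3 above, where 27.9% and 27.8% of all tested genes did. Trp53 itself rose with Max by 0.63 and stood at -0.00038 without, with 95% limits of -0.17 and 0.17 (interaction -0.63, adjusted p = 0.000411). Cdkn2a, which encodes ARF, was at 7.59, 9.62 and 6.53 CPM in EuMyc Max WT and 0.433, 0.877 and 1.77 CPM in EuMyc Max KO, against 0.0571 to 0.284 CPM in the normal libraries. It rose in both settings, by 5.46 and 3.06, and the interaction of -2.40 missed the threshold (adjusted p = 0.0765). Among 16 clock genes with E-box control 6 interactions lay above 0 and 6 below, counts that are not far from those shares. Nr1d1, the repressor REV-ERB alpha, was at 1.78, 1.65 and 2.32 CPM in Max WT, 8.87, 8.63 and 7.49 CPM in Max KO, 17.6, 20.5 and 20.9 CPM in EuMyc Max WT and 7.95, 8.11 and 7.85 CPM in EuMyc Max KO. Both the transgene with Max (3.36) and Max loss without the transgene (2.12, adjusted p = 8.83e-06) raised it, and the level of the cells with both overlapped that of Max loss alone (interaction -3.42, SE 0.21, adjusted p = 1.26e-07).

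Few transgene effects could be placed within a set bound of their size with Max, and those were small. An effect was counted as kept where it was called with and without Max in the same direction and the 95% interval of the interaction lay within 1.5-fold either way, since a p that misses the threshold does not show likeness. This rule took 198 of the 12878 tested genes (1.54%), 96 up (0.745%) and 102 down (0.792%), with a median effect size of 0.436 with Max and 0.272 without. The bound is 0.585 in log2, wider than most of these effects, so the rule also takes genes whose effect shrank, and 45 of the 198 had a called interaction. Among the 3982 genes that changed over 2-fold with Max, 3 were kept. Uhrf2, a ubiquitin ligase that reads hydroxymethylcytosine, was one of those 3. It was at 54.4, 58.0 and 57.3 CPM in Max WT, 117, 136 and 133 CPM in EuMyc Max WT, 56.0, 55.0 and 54.0 CPM in Max KO and 106, 97.7 and 91.3 CPM in EuMyc Max KO. Both transgenic groups lay above both normal groups, with effects of 1.19 and 0.84, and the interaction was called but small (-0.35, 95% interval -0.56 to -0.13, adjusted p = 0.00989). Acp1, a low molecular weight tyrosine phosphatase, gave 1.19 and 1.12 (interaction -0.07, interval -0.58 to 0.43), but stood at 88.1, 75.3 and 48.9 CPM in EuMyc Max KO replicates 1, 2 and 3, with replicate 1 highest and replicate 3 lowest, as for the erythroid list.

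Other kept genes came from several lists. Cd72, a B cell coreceptor, was at 374, 391 and 385 CPM in Max WT, 335, 303 and 312 CPM in EuMyc Max WT, 481, 535 and 550.2 CPM in Max KO and 405, 440.2 and 450.0 CPM in EuMyc Max KO. The transgene lowered it in both settings (-0.27 and -0.27) and Max loss raised it by 0.45, and the 95% interval of the interaction was -0.21 to 0.21. Crbn, the substrate receptor cereblon, fell by 0.65 with Max and by 0.31 without on the log2 scale (interaction 0.34, adjusted p = 0.00629). Fdps and Fdft1, successive enzymes of the sterol pathway, rose by 0.62 and 0.43 with Max and by 0.32 and 0.38 without. Azin1, an activator of ornithine decarboxylase, rose by 0.56 and 0.58 and stood at 312, 294 and 199 CPM in EuMyc Max KO replicates 1, 2 and 3. Its interaction was -0.41, and called, without replicates 1 and 2. With those 2 libraries left out, 34 genes met the rule, of which 8 were among the 198. Leaving out replicate 2 of EuMyc Max KO alone gave 64 and leaving out replicate 3 gave 424, and the count was 115 without Max WT replicate 3, 75, 123 and 80 without Max KO replicates 1, 2 and 3, 127 without EuMyc Max WT replicate 1 and 66 without EuMyc Max KO replicate 1.

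**Figure D4:**
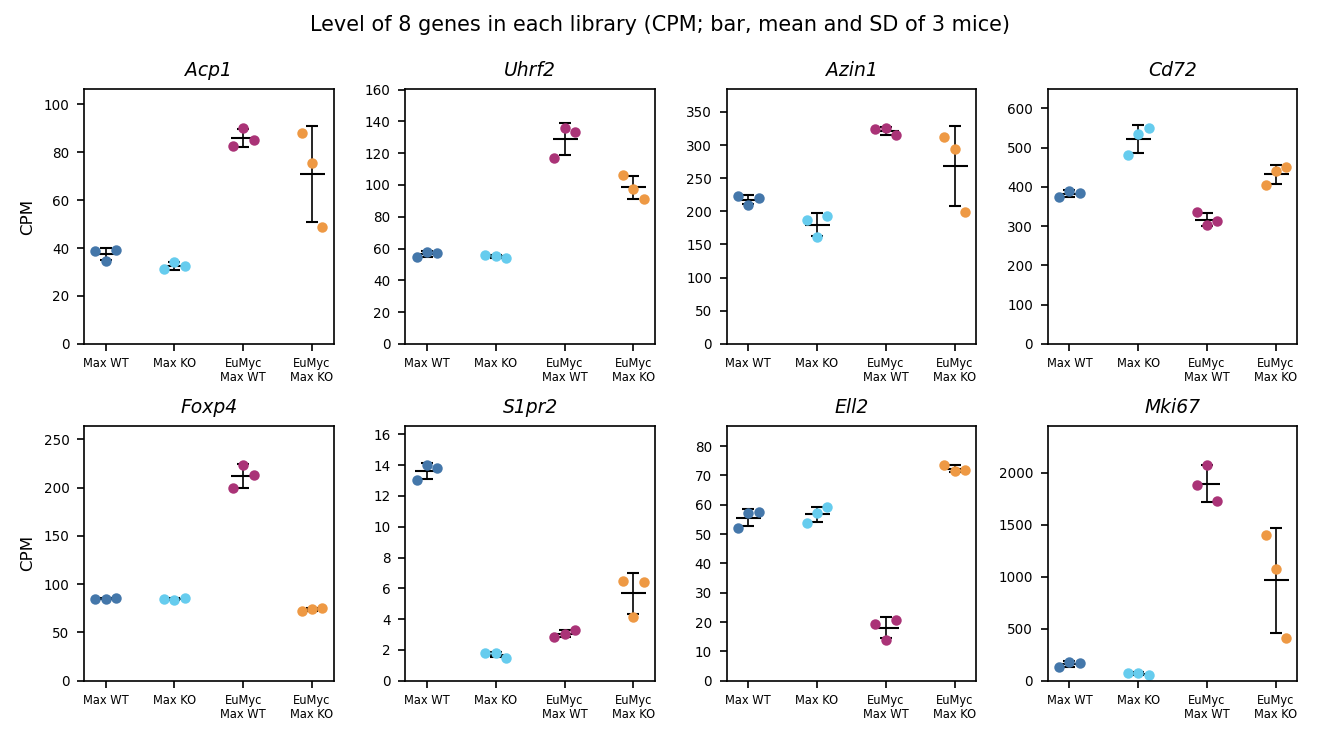
Levels in CPM by library for 4 genes with kept transgene effects (Acp1, Uhrf2, Azin1, Cd72), 3 with opposite effects (Foxp4, S1pr2, Ell2) and Mki67, with the mean and SD of the 3 mice of each group as bars and axes that start at 0. Uhrf2 is raised by the transgene in both Max genotypes, S1pr2 and Ell2 are lowered with Max and raised without, and Acp1, Azin1 and Mki67 spread widely in EuMyc Max KO.

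Effects that appeared or grew without Max included erythroid genes. The transgene effect was called only without Max in 182 genes with a called interaction, and was larger without Max in 19, all of them raised. Among the 19 were Sptb, the beta-spectrin of red cells, Tal1, a transcription factor of blood progenitors, Ermap, an erythroid membrane protein, and Tfr2, a second transferrin receptor. Car2 was at 31.5, 37.3 and 23.7 CPM in Max KO, below all 3 EuMyc Max KO libraries (effect without Max 4.39, interaction 3.22, SE 0.76, adjusted p = 0.00698). Of 18 tested erythroid markers 12 rose with Max (median 2.18) and 16 rose without (median 4.93). The median interaction was 2.64, and one above 0 was called for 4 of the 18, where 27.8% of all tested genes had one. That count depended on the setting. It was 13 with DESeq2, 12 without Max WT replicate 3, 7 with upper-quartile factors and 1 with limma-voom. Without EuMyc Max KO replicates 1 and 2, 6 rose without Max, with a median of 2.88, and 1 had an interaction above 0. Klf1, the erythroid master regulator, was at 2.18, 2.05 and 0.596 CPM in Max WT, 1.47, 3.58 and 0.914 CPM in Max KO, 7.16, 6.27 and 8.88 CPM in EuMyc Max WT and 109, 70.2 and 17.3 CPM in EuMyc Max KO. The lowest tested marker in EuMyc Max KO was Hbb-bs, a beta-globin gene, at 5.25, 3.29 and 0.884 CPM. Mxd1, the MYC antagonist MAD1, rose without Max only (interaction 1.75, SE 0.54, adjusted p = 0.0205) and ran in the same order, at 133, 89.4 and 34.9 CPM. Its interaction was no longer called without EuMyc Max KO replicates 1 and 2 (adjusted p = 0.0663). The part of erythroid cells in these results was not tested.

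Markers of T cells, NK cells, dendritic cells and macrophages were lowest in EuMyc Max WT. Of 22 T cell markers 21 fell with Max, where the median effect was -2.82 against 0.0921 without, and 21 had an interaction above 0. Their summed level was 164 to 207 CPM in Max WT, 239.6 to 279 CPM in Max KO, 47.4 to 47.9 CPM in EuMyc Max WT and 252 to 277 CPM in EuMyc Max KO. Cd3e, the defining chain of the T cell receptor complex, was at 0.0484, 0.0532 and 0.261 CPM in EuMyc Max WT and at 2.87 to 5.10 CPM elsewhere. Of all tested genes 27.8% had an interaction above 0, as did 73.7% of all genes lowered with Max. Neutrophil markers, with 3 of 10, were near the share of all tested genes. NK cell markers had 8 of 12 interactions above 0, dendritic cell markers 13 of 17, plasma cell markers 8 of 12 and monocyte and macrophage markers 20 of 23. For the last list 8 remained above 0 without EuMyc Max KO replicates 1 and 2, and its summed level was 4337 to 5360 CPM in Max WT, 6554 to 9655 CPM in Max KO, 2574 to 3277 CPM in EuMyc Max WT and 7002 to 14774 CPM in EuMyc Max KO. Interactions above 0 in mature B cell, interferon and class II genes thus came with lower levels of these markers in EuMyc Max WT, and their part in those results was not tested.

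**Figure D5:**
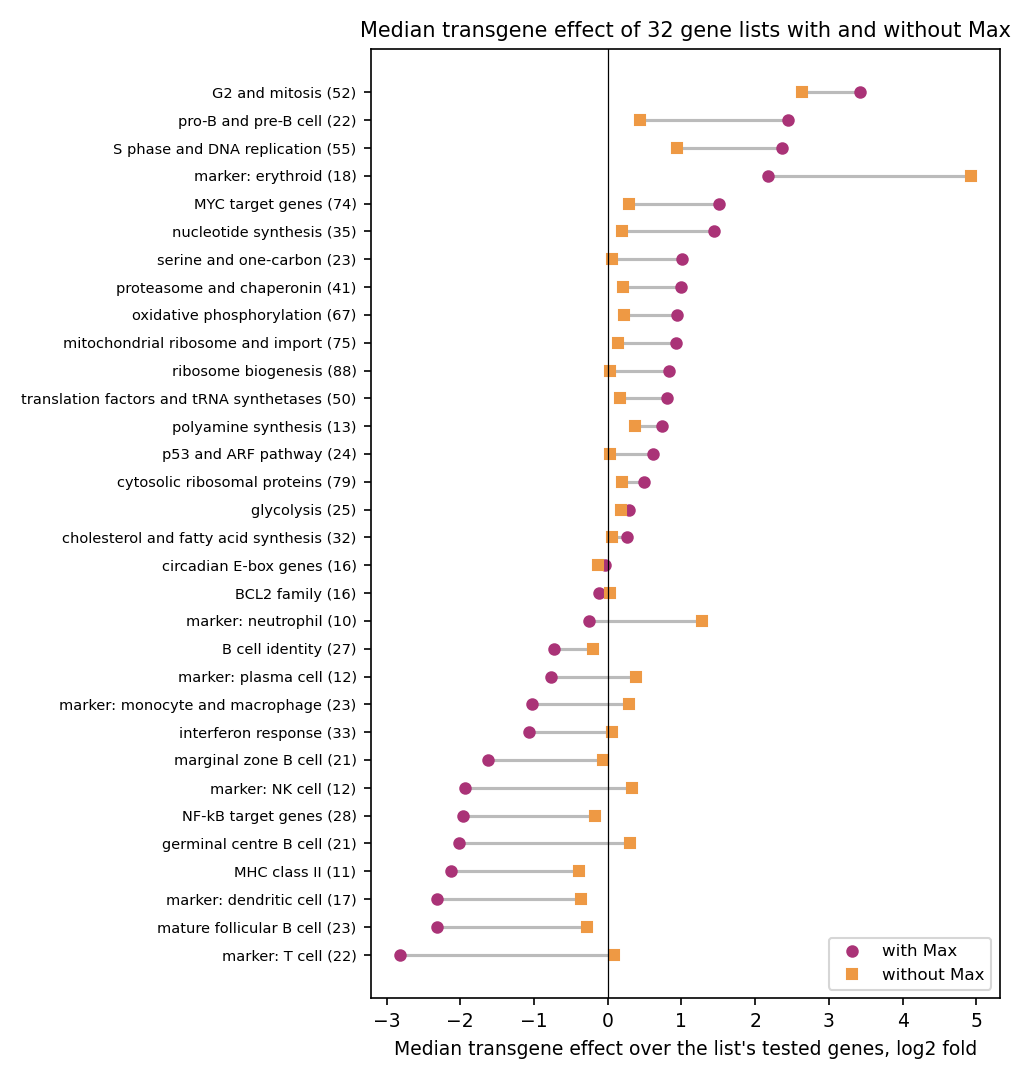
Each row is 1 of 32 gene lists, with the number of tested genes in brackets, and shows the median transgene effect over its genes with Max (circle) and without Max (square) as log2 fold. Growth and precursor lists are raised with Max and lower without, where S phase is still at 0.936 and pro-B and pre-B at 0.439. Mature B cell, interferon and T cell lists are lowered with Max and close to 0 without. G2 and mitosis is at 3.42 with Max and 2.63 without, and the erythroid list is higher without Max.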

How the data were processed

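RNA from B220+ splenocytes of 12 mice was sequenced, 3 per genotype. The authors deposited 1 table of raw read counts per gene for each library. The submitters' processing notes name bcl2fastq 1.8.4, TopHat2 2.1.0, HTSeq 0.6.1 and mm10, without their settings. Annotation and strand setting are not given in the labels or processing notes, so overlapping and antisense genes cannot be told apart. The 5 summary rows that name no gene were removed; reads in no gene came to 12.5 to 20.3% of each library. Coordinates are from GENCODE vM21 (GRCm38), which matched 95.7% of symbols.

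Counts were filtered with filterByExpr, scaled by TMM and fitted with edgeR 4.0.16 (R 4.3.3, robust quasi-likelihood, 4 groups, 8 residual degrees of freedom). P-values were adjusted over all 12878 genes by Benjamini-Hochberg, called under 0.05. Intervals are 95% from the fit. The script was tested on simulated counts. Alternatives were other scalings and filters, DESeq2 1.42.0, limma-voom 3.58.1, a replicate block and leaving out each library. Leaving out EuMyc Max KO replicates 1 and 2 together was chosen after seeing the data. Members and gene lists were chosen with earlier results of these data known. The genes named were, by rule, Myc, Max and their network; the 10 highest, 10 lowest and, in each direction, 10 smallest-p called interactions at a mean of at least 5 CPM; the 6 highest and 6 lowest kept effects at 20 CPM or more; and, per gene list, at most 3 called members taken by p with at most 2 kept ones. Immunoglobulin, T cell receptor, haemoglobin and unnamed genes were barred from the rankings, and not every gene so chosen is described. Ccnd2, Cd3e, Cdkn2a, Jak2, Klf1, Mki67, Odc1, Ptprc, Rag1, Rrm2, Slc3a2, Slc7a5, Tfrc, Trp53, Pax5, Hbb-bs, Sptb, Tal1, Ermap and Tfr2 were chosen after their values were seen. Phb was named by the promoter rule. A few genes of the lists are not reported here.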

Additional observations from a re-analysis of the deposited data

Results flagged for a closer look

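The difference between the transgene effects with and without Max was itself tested, and 7175 genes passed. Of these, 75 had called transgene effects in opposite directions. Members of this group named by rule were Foxp4 (interaction -1.52), Ell2 (1.97), S1pr2 (3.89), Fras1 (5.47) and Prg2 (6.75). Fras1 encodes an extracellular matrix protein and Prg2 an eosinophil granule protein. Prg2 spread widely in EuMyc Max KO, at a mean of 37.2 CPM with an SD of 27.5.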

How the results depend on the processing

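The called interactions numbered 6345 to 7475 over all settings tried, and 6504 to 7475 when 1 library was left out (3202 to 3827 above 0 and 3279 to 3648 below). The transgene effects called with Max numbered 8628 to 9541 over those fits, effects without Max 1057 to 2846 and kept effects 64 to 424. The kept count was 33 with a bound of 1.2-fold and 482 with 2-fold. Without EuMyc Max KO replicates 1 and 2 together, 569 effects without Max and 34 kept effects were called, and the interaction turned to -0.41 for Azin1 and -1.43 for Mxd3; the cause was not tested. Upper-quartile scaling moved the median interaction of all genes from 0.0239 to 0.113. Over the named genes and all settings, 3270 values kept their direction and side of the threshold, 68 lost and 20 gained the call and 2 changed direction.

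The replicate numbers were not taken to pair the libraries, since 6 of 18 same-numbered pairs had a correlation of deviations over 0.1 (range -0.133 to 0.39). The 3 pairs of Max WT with Max KO were all over it (0.105 to 0.39), and 8 of 12 libraries correlated best with their own number, as a hint only. With the replicate number as a block, 7116 interactions, 9181 effects with Max, 1822 without and 182 kept effects were called, and 9 follicular and 7 class II genes fell without Max, against 4 and 4. Precision is limited by 3 mice a group and, for low-count genes, by depth.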
